A study of Mus musculus with 2 samples.

Results

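Promoters that are open in the hippocampus although they hold few CpG sites were described from DNase-seq, an assay that maps the chromatin which the nuclease DNase I can cut. A promoter was taken at the outermost annotated transcription start of a gene, and it was counted as low in CpG when the observed to expected ratio of CpG, in the 1000 bp centred on that start, was under 0.25. It was counted as open when a peak of both libraries lay within 500 bp of the start. Of 20807 autosomal protein-coding genes, 5813 had a low-CpG promoter, and 112 of those (1.93%) were open. Among the other 14994 promoters 10255 were open, which is 68.4%, and over all promoters the share was 49.8%. The CpG ratio and the presence of peaks chose the 112 promoters, so members were selected on peak calls of both libraries, and their openness, signal and CpG content are given as descriptions without a test.

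DNA came from female mice of the cross B6CASTF1/J at 25 days of age, from a hippocampal layer that the labels do not name. Biological replicates 1 and 2 gave 1 library each, and together they form the only group. No treatment, mutant or control group was labelled. The strict peak lists held 61466 and 50379 peaks, and the sequencing depth is unknown, since the files used hold no tag counts. The labels give both libraries the same donor entry, so it is unclear whether 1 animal or more were used, and differences between the libraries may be technical. The cross carries a CAST genome beside a C57BL/6J genome, and positions and sequences below are those of the C57BL/6J reference, mm10.

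CpG dinucleotides have been lost from most of the mouse genome, because methylated cytosine mutates readily to thymine, and are kept in CpG islands. Promoters in islands are unmethylated and accessible in many cell types. Promoters outside islands are typical of genes that only certain tissues use, such as those of liver enzymes, immune receptors and odorant receptors, and a TATA box is more common among them. At an accessible promoter a bound protein can shield its own site from DNase I, which leaves a short protected stretch called a footprint.

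Tissue identity was checked on the promoters of marker genes irrespective of CpG content, to be read beside the 49.8% of all promoters that were open. The lists differed in CpG content. Low-CpG promoters made up 5 of 51 pan-neuronal, 24 of 49 microglia and macrophage, 20 of 32 blood cell and 20 of 30 hepatocyte markers. Of low-CpG promoters 1.93% were open and of other promoters 68.4%, so cell identity and CpG content cannot be told apart in these shares. Of the pan-neuronal and synaptic markers 39 of 51 were open (76.5%), and of the markers of excitatory hippocampal neurons 24 of 44 (54.5%), which is near the share of all promoters. Astrocyte markers were open at 17 of 39 (43.6%), oligodendrocyte markers at 9 of 42, microglia and macrophage markers at 8 of 49 and vascular markers at 4 of 34. GABAergic interneuron markers were open at 6 of 31 (19.4%), and choroid plexus and ependyma markers at 7 of 21 (33.3%). Of markers foreign to the tissue, those of blood cells were open at 0 of 32, of hepatocytes at 1 of 30, of striated muscle at 2 of 32, of keratinocytes at 2 of 25 and of male germ cells at 5 of 28 (17.9%), a share like that of the microglia markers (16.3%). Because the tissue is a mixture of cells, a low signal from few accessible cells and a low signal from weak accessibility in many cells cannot be told apart.

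The sequences that recur in the results below are shown first, all read from the reference genome in the direction stated. The first set stands for 18 promoters with a CTCF-type sequence at the peak. CTCF is a zinc finger protein that binds DNA and anchors chromatin loops and boundaries. Its motif was searched as a consensus of 12 bases, of which 8 are fixed, and 8 of the 14 matches outside protein-coding exons are shown on the strand of the motif, with the 12 matching bases in capitals and 14 bases on either side.
Gfap (chr11:102900974-102901013, plus strand): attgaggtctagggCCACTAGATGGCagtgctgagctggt
Hsd3b7 (chr7:127800494-127800533, plus strand): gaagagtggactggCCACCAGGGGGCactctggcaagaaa
Npff (chr15:102525276-102525315, minus strand): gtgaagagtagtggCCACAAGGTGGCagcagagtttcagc
Adprhl1 (chr8:13254323-13254362, minus strand): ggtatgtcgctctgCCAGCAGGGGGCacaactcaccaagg
C1rb (chr6:124570206-124570245, plus strand): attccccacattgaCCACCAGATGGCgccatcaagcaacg
Ttc34 (chr4:154837358-154837397, plus strand): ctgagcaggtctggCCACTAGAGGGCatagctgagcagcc
Trpm5 (chr7:143094895-143094934, plus strand): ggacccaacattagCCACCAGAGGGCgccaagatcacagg
Olfr557 (chr7:102695562-102695601, plus strand): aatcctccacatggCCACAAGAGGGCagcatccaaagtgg
None of the 18 matches held a CpG within its 12 bases. At C1rb and Trpm5, among those shown, the last matching base forms a CpG with the base after it. At Pcp4, the strongest of the 112 promoters by its mean rank over both libraries, the match lay from 17 to 6 bases before the start, inside the footprint that both libraries shared. The bases of that peak before the start are shown on the gene's strand, with the shared footprint in capitals.
Pcp4 (chr16:96467541-96467605, plus strand): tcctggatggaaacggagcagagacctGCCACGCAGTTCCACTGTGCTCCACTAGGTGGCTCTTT

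The second set belongs to neighbouring genes of MHC class II, which present peptides to helper T cells, and of the Cyp4f family of cytochrome P450 enzymes, which hydroxylate fatty acids. In each case the part of the shared peak that lay before the gene's start is shown on the gene's strand, with footprints shared by both libraries in capitals.
H2-Aa (chr17:34287824-34287980, minus strand): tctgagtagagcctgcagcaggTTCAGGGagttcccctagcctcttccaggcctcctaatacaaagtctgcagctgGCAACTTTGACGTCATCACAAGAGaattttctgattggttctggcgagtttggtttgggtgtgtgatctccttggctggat
H2-Eb1 (chr17:34305701-34305866, plus strand): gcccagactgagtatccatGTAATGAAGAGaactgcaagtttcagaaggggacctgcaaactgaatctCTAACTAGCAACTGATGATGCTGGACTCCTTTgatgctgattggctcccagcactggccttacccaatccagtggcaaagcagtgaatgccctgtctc
Cyp4f13 (chr17:32947403-32947560, minus strand): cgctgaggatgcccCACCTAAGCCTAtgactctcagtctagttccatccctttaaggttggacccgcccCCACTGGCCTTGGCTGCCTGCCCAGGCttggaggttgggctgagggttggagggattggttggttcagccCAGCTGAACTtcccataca
Cyp4f16 (chr17:32536401-32536557, plus strand): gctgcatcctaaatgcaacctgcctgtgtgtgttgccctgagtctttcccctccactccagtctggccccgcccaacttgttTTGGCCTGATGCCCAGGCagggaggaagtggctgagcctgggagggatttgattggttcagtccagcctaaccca
Cyp4f15 (chr17:32685461-32685626, plus strand): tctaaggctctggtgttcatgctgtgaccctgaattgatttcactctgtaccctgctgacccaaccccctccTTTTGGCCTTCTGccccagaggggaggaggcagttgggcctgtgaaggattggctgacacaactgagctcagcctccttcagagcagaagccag
The footprint over H2-Aa held the letters of a CRE (TGACGTCA). Both MHC promoters shown held CTGATTGG, the letters of the Y box of class II promoters, outside a footprint shared by both libraries. H2-Ab1, also an open class II gene, did not hold these letters in the 200 bases before its start. In the 3 Cyp4f promoters a footprint shared by both libraries overlapped a gapped NFI-type sequence (ending inside it at Cyp4f15), the letters TTGGC followed at a fixed distance by GCC, and CCAAT stood on the opposite strand nearer to the start.

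The share of open promoters was higher in each successive interval of the CpG ratio up to 1, on both sides of the boundary used. Both libraries had peaks at 0.401% of promoters with a ratio under 0.05, at 1.12% between 0.10 and 0.15 and at 4.93% between 0.20 and 0.25. The share was 9.44% between 0.25 and 0.30, 41.2% between 0.40 and 0.50 and 90.0% between 0.80 and 0.90. Thus 55 of the 112 open promoters came from the highest of the 5 low-CpG intervals. Members just under the boundary were Kcnip3, a potassium channel interacting protein, with a ratio of 0.2496 and signals of 1.89 and 0.893, C1ra (0.2487) and Rsph14 (0.2472). Just over it were Cyp2j6 (0.2510), with weaker signals of 0.956 and 0.615, Cc2d2a (0.2521) and Nwd1 (0.2525), the last with stronger signals of 5.33 and 1.48.

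**Figure D1:**
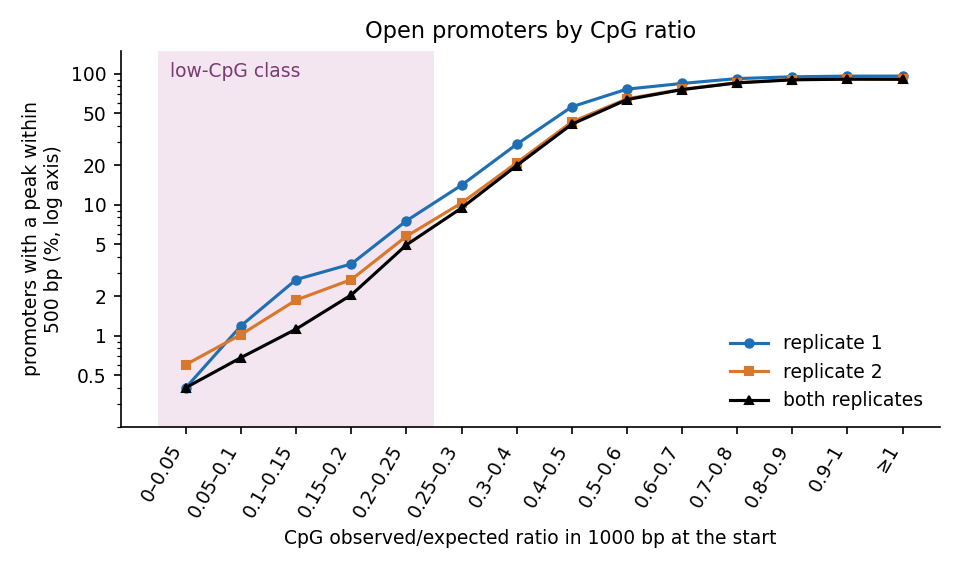
Percentage of autosomal protein-coding promoters with a peak within 500 bp of the outermost start (log axis) by CpG observed to expected ratio, for replicate 1, replicate 2 and both. The shaded low-CpG class rises from 0.401% to 4.93% open in both, and the curve continues upward to 90.0% and above.

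Fewer low-CpG promoters were open in both libraries than in either. Replicate 1 had a peak at 193 low-CpG promoters (3.32%) and replicate 2 at 147 (2.53%), where the shares of other promoters were 76.3% and 69.0%. Of the 81 found only in replicate 1, 48 had a peak in the longer, less strict list of replicate 2, and of the 35 found only in replicate 2, 23 had one in the longer list of replicate 1. The longer lists of both libraries opened a further 112 low-CpG promoters. The strongest of these were Lgi4, which encodes a secreted protein of myelinating glia, with longer-list signals of 5.40 and 1.41, Nphs1 (1.88 and 1.02) and G430095P16Rik (2.01 and 0.893). At Lgi4 the nearest strict peak lay 2 bp from the start in replicate 1 and 38339 bp away in replicate 2. Of the 5701 low-CpG promoters that were not open in both, 93.8% had no base at a cut-rate false discovery rate of 0.05 or less in either library. Peaks and cut rates come from the same libraries, so the 2 are not independent.

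The 112 open promoters had weaker peaks than other open promoters. The signal, the value the authors gave each peak on a scale that is not stated, had a median of 1.89 in replicate 1 and 0.919 in replicate 2, against 4.40 and 1.87 for the other 10255. The ranges overlapped widely, from 0.441 to 13.8 in replicate 1 and from 0.375 to 2.52 in replicate 2. Open promoters of the adjoining CpG class, with ratios from 0.25 to under 0.40 (364 promoters), had medians of 1.89 and 0.953, close to those of the low-CpG promoters. Peaks were also narrower, with median widths of 180 and 200 bp against 220 and 260 bp. Within the low-CpG set the ratio itself tracked signal little (Spearman rho 0.15 in replicate 1 and 0.16 in replicate 2, over 112 promoters that share the same libraries).

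Signals were higher in replicate 1 at 106 of the 112 promoters, as they were across open promoters generally. The median log2 ratio of replicate 1 to replicate 2 was 1.07, with a range from −0.46 to 2.93. The median was 1.24 at the other open promoters and 0.91 in the adjoining CpG class. Replicate 2 was at least as high at 6 (5.36%), beside 10 of 364 in the adjoining class (2.75%) and 56 of the other open promoters (0.546%). Those 6, named after their values were seen, were Neurod6, Ddn, 4933407L21Rik, Krt77, Ifi203 and Mndal. Neurod6, a transcription factor gene of pyramidal neurons, had signals of 1.40 in replicate 1 and 1.57 in replicate 2, and Ddn, which encodes the dendritic protein dendrin, had 1.55 and 1.61. Ifi203 and Mndal, interferon-inducible genes of the HIN-200 family, share 1 peak with 0.441 and 0.608. The libraries ranked the members with a Spearman rho of 0.77, and the other open promoters with 0.86.

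**Figure D2:**
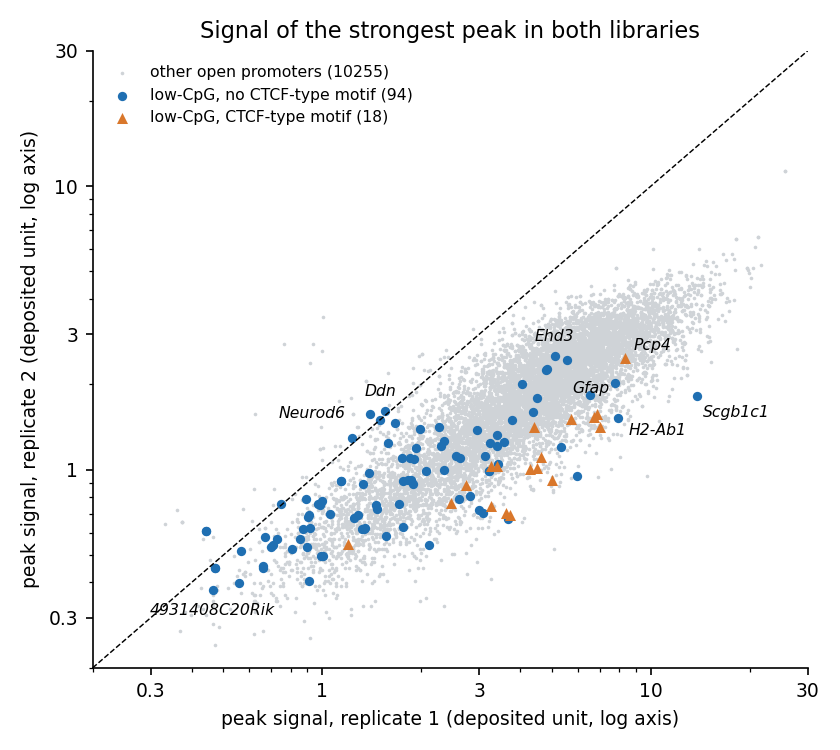
Deposited signal of the strongest promoter peak in replicate 1 (x) and replicate 2 (y), both on log axes, for each promoter; the dashed line marks equal signal. Low-CpG promoters spread over the lower part of the cloud of other open promoters, and 106 of 112 lie below the line. Those with a CTCF-type motif (triangles) tend to lie further below the line. Their median log2 ratio of replicate 1 to replicate 2 was 2.08, against 0.95 for the 94 without it.

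By the mean of their 2 signal ranks the 10 strongest low-CpG promoters were Pcp4, Cyp4f13, Scgb1c1, Btbd17, Ehd3, Abcb8, Gfap, H2-Ab1, Ptms and Atp5j2. Pcp4, a calmodulin-binding protein of neurons, had signals of 8.32 in replicate 1 and 2.48 in replicate 2 at its start at position 96467606 of chromosome 16, higher than 89.5% and 73.1% of all open promoters. Scgb1c1, a secretoglobin gene, had 13.8 in replicate 1, the highest of the set, but 1.82 in replicate 2, and its peak lay 537 bp before the start (chromosome 7, position 140845547). The libraries therefore placed Scgb1c1 higher than 99.1% and 48.3% of open promoters. Gfap, the intermediate filament gene of astrocytes, had 6.85 and 1.58 at a peak 88 bp before its start on chromosome 11 (position 102900912). Cyp4f13 had 7.76 and 2.03, and H2-Ab1, the class II beta chain, 7.93 and 1.52. The remaining 5 had lower signals in replicate 1, from 4.79 at Atp5j2, a subunit of ATP synthase, to 6.53 at Abcb8, a mitochondrial transporter. Their signals in replicate 2 were 1.83 to 2.52, highest at Ehd3, an endocytic recycling protein.

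The weakest were Rgs20, a regulator of G protein signalling, with 0.471 and 0.450, Crispld1 with 0.559 and 0.398 and 4931408C20Rik with 0.463 and 0.375. 4931408C20Rik also had no CpG at all in the 1000 bp around its start, and Olfr536, an odorant receptor gene, had 1 (signals of 0.699 and 0.533). Atp6v1h, Ifi203 and Mndal followed with 3 each, and in the order of mean signal rank these 5 stood between positions 103 and 112. The median over the set was 11.5 CpG sites, beside 6 in the low-CpG promoters that were not open and 66 in the other open ones. GC content was 49.8%, 44.4% and 59.6% in the same order.

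Peaks at low-CpG promoters often lay beside the start instead of over it. Peaks of both libraries covered the outermost start at 37 of 112 (33.0%), against 69.0% of the other open promoters, and came within 100 bp of it at 61 (54.5%), against 86.5%. In the adjoining CpG class these shares were 45.9% and 70.6%. The middle of the shared peak, the stretch common to a peak of each library, was a median of 143.5 bp from the start, against 65 bp. It lay before the start at 58 promoters and within the gene at 54, and at 24 it was more than 400 bp away. By annotation the middle fell upstream of the gene at 58, in an exon outside coding sequence at 36, in an intron at 15 and in a coding exon at 3.

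**Figure D3:**
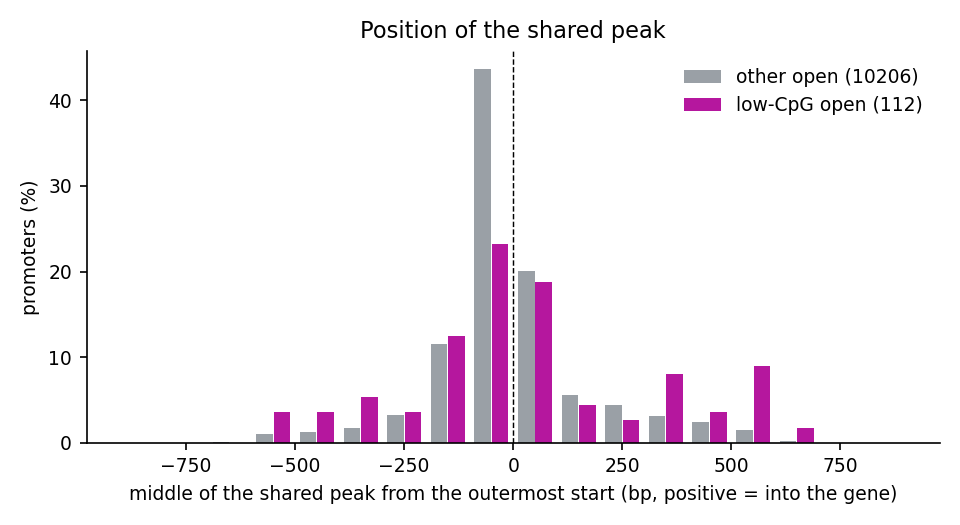
Distance from the outermost start to the middle of the shared peak (x, in bp, positive into the gene) as a percentage of promoters per 100 bp (y), for the 112 low-CpG open promoters and 10206 other open promoters with overlapping peaks. The low-CpG promoters have a lower bar just before the start and more peaks beyond 300 bp on either side.

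For 38 of the 112 the nearest annotated start was not the outermost one. It was a further start of the same gene at 29 and the start of another gene at 9. At 13 of these 38 the nearest start was itself not low in CpG, so the peak lay nearer to a start richer in CpG than to the outermost one. Ehd3 was the strongest: its peak lay 586 bp into the gene and 121 bp from a further start with a ratio of 0.646, beside 0.216 at the outermost start. Atp5j2 had the same arrangement, with a peak 22 bp from a start whose ratio was 0.523. By contrast 64 promoters had the outermost start nearest to the peak and a ratio under 0.25 also in the 1000 bp centred on the peak. At the peak the ratio was under 0.25 in 88 of 112 (78.6%).

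Further starts of the gene, over 500 bp away, that were open and not low in CpG occurred at 33 of the 112 genes (29.5%), against 7.21% of low-CpG genes not open at their outermost start and 16.9% of the other open genes. In the adjoining open class the share was 23.1%. A further start counted as open when peaks of both libraries lay within 500 bp of it. The peak that made a gene a member could therefore also open a further start. At Galnt17, for example, the peak lay 607 bp into the gene and 17 bp from a further start with a ratio of 0.677. How much of the contrast with genes not open comes from this rule was not tested. The outermost start belonged to a transcript of the GENCODE basic set at 71.4% of the 112. The shares were 86.9% of low-CpG genes not open and 83.0% of the other open genes. Several members were not independent, since 8 of them shared 4 peaks of replicate 1 with a neighbour. The pairs were Atp6v1h and Rgs20, Mndal and Ifi203, Tmem176a and Tmem176b, and Il18 and Bco2. Tmem176a and Tmem176b, membrane protein genes on opposite strands with starts 577 bp apart, had signals of 3.22 and 0.990.

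Footprints in both libraries at the same place were found in the windows of 77 of the 112 (68.8%), a share close to the 67.0% of open promoters with ratios from 0.25 to under 0.40, against 87.7% of all other open promoters and 0.474% of low-CpG promoters that were not open. Footprints counted as shared when they overlapped by 50% of the shorter. The median was 3 footprints per window in replicate 1, 2 in replicate 2 and 1 shared. Arhgef16, a guanine nucleotide exchange factor gene, had most, with 4 shared, although its signals were only 1.46 and 0.750. Cyp4f13, Gfap, H2-Ab1 and Ptms, a parathymosin gene, each had 3. Fewer bases passed the cut-rate threshold in these windows: the median number at a false discovery rate of 0.001 or less was 266.5 and 221 in the windows of the low-CpG promoters against 652 and 597 in the others.

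A TATA box, searched as TATAAA from 40 to 20 bases before the outermost start, was rare among the open low-CpG promoters. It was present at 1 of 112 (0.893%), Acy3, an aminoacylase gene with signals of 0.919 and 0.623. In low-CpG promoters that were not open the share was 5.17%, and in the other open promoters 0.614%. With TATATA and TATAAG also allowed, 3 of 112 (2.68%) held a match, beside 9.02% of those not open and 1.08% of the other open promoters. The search was tied to the outermost start, which peaks of both libraries covered at only 33.0% of the 112. The Acy3 peak reached to 25 bases before the start and ended on the box.
Acy3 (chr19:3986427-3986545, plus strand): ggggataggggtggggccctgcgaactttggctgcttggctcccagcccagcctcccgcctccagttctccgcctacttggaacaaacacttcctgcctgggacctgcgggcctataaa
No footprint was shared at Acy3, so this stretch of the peak carries no capitals.

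The CTCF-type motif was present in the 200 bp at the shared peak of 18 of 112 low-CpG promoters (16.1%). Among other open promoters it was present at 320 of 10206 (3.14%), and among open promoters with ratios from 0.25 to under 0.40 at 7.26%. At starts, a window of the same length held it at 7 of the 112 (6.25%), at 0.912% of low-CpG promoters that were not open and at 1.71% of all promoters. All 18 matches lay within 27 bp of the middle of the shared peak and overlapped a footprint of both libraries, whereas 171 of the 320 matches at other open promoters did so (53.4%). The match stood on the gene's strand at 12 and on the opposite strand at 6.

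Promoters with the CTCF-type motif had higher signal in replicate 1 than those without it. Their median was 4.34 in replicate 1, with a range from 1.20 to 8.32, and 1.02 in replicate 2, with a range from 0.548 to 2.48. The 94 without it had medians of 1.68 and 0.904. The median log2 ratio of replicate 1 to replicate 2 was 2.08 with the motif and 0.95 without it, and the lowest ratio among the 18 was 1.13. The same quantity was 1.52 for the 320 other open promoters with the motif and 1.24 for the 9886 without it. In the adjoining CpG class, with ratios from 0.25 to under 0.40, it was 1.85 for the 26 with the motif and 0.90 for the 332 without. The median signals of that class in replicate 1 were 4.17 with the motif and 1.83 without it, so the pattern was not particular to the low-CpG set. The libraries' depths are unknown, and their part in this difference was not tested. Of the 30 strongest low-CpG promoters 10 held it, and of the 30 weakest 1, Olfr557.

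Genes with the motif had varied roles and positions. Gfap and Pcp4 are expressed in the brain, and C1rb and C1ra encode complement serine proteases. Hsd3b7, an enzyme of bile acid synthesis, had signals of 6.71 and 1.54 at a peak 64 bp before its start and a CpG ratio of only 0.100. Npff, the precursor of neuropeptide FF, had 4.40 and 1.42 at a peak 350 bp before the start, and Trpm5, a cation channel of taste cells, 3.72 and 0.690 at 276 bp before it. Apart from Gfap, Pcp4, C1ra, C1rb and Olfr557 these names were chosen after their values were seen. The peak lay upstream of the gene at 12 of the 18, and 5 of the 18 had it more than 400 bp from the start.

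**Figure D4:**
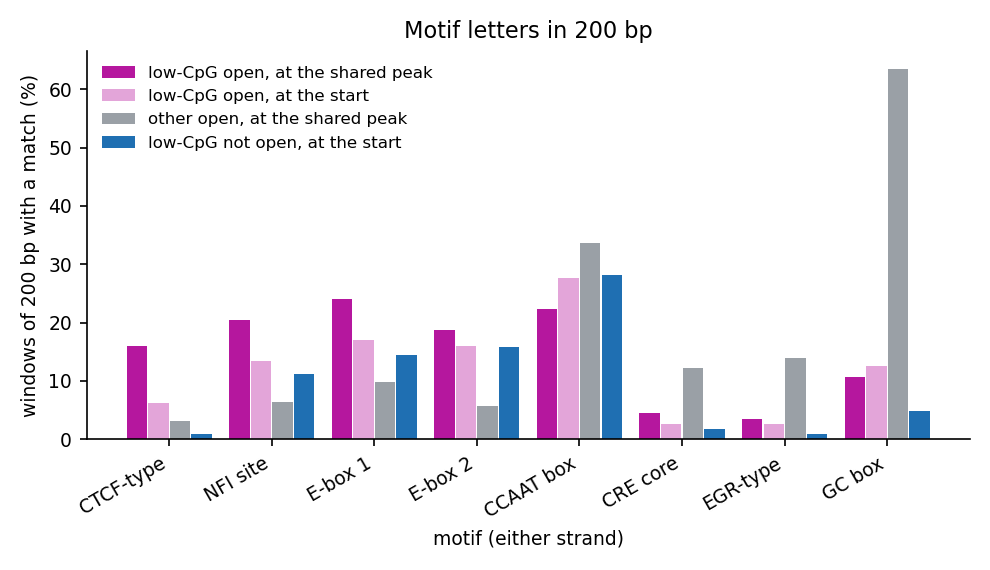
Percentage of 200 bp windows that hold the letters of 8 motifs on either strand, at the shared peak and at the start of low-CpG open promoters, at the shared peak of other open promoters and at the start of low-CpG promoters that are not open. E-box 1 is CAGCTG and E-box 2 is CAGATG; the CTCF-type bar is highest at the peak of low-CpG open promoters (16.1%) and the GC box bar in other open promoters (63.4%).

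Other motif letters were counted in the low-CpG open promoters both at the peak and at the start. The promoters that were not open have only a start. In all 20 motifs were searched, and not all of them are given here. The E-box CAGCTG, a sequence that bHLH factors recognise, stood at the peak of 24.1% of low-CpG open promoters and 9.88% of other open promoters. At the start it stood at 17.0% of low-CpG open promoters and 14.5% of low-CpG promoters that were not open. For the E-box CAGATG the shares at the peak were 18.8% and 5.64%, and at the start 16.1% and 15.9%. For the NFI site TTGGCA they were 20.5% and 6.47% at the peak, and 13.4% and 11.2% at the start. Thus these letters were more frequent than at the peaks of other open promoters, while at the start their shares were close to those of low-CpG promoters that were not open. The GC box GGGCGG, bound by Sp factors, had 10.7% and 63.4% at the peak, and 12.5% and 4.82% at the start. In the adjoining class it stood at 24.0% of peaks. The EGR-type GTGGGCG had 3.57% and 13.9% at the peak, and 2.68% and 0.877% at the start. The GC box and EGR-type letters contain a CpG, which the choice by CpG ratio selects against. The CCAAT box, which has no CpG, had 22.3% and 33.7% at the peak, and 27.7% and 28.2% at the start. The MEF2 motif, searched by its consensus, was at 0 of 112 peaks, beside 0.431% of those of other open promoters, and at 1 of 112 starts, beside 2.68% of those that were not open.

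Among genes of the nervous system, 6 of 27 neurotransmitter receptor genes with a low-CpG promoter were open (22.2%), beside 0 of 15 neuropeptide and peptide hormone genes, 1 of 23 voltage-gated channel genes and 1.93% of low-CpG promoters in all. Glutaredoxin and Htra genes, which share symbol letters with receptors, were taken out of this list after values had been seen; with them 7 of 29 were open, Glrx being the seventh. Among them were Chrm1, the M1 muscarinic receptor, with signals of 2.34 and 1.26, Gria1, an AMPA receptor subunit, with 2.30 and 1.21, Oprl1, the nociceptin receptor, with 1.82 and 0.923, Htr3a with 1.35 and 0.623 and Htr2b with 0.904 and 0.683. These were below the medians of other open promoters in both libraries. At Chrm1, Gria1, Oprl1 and Htr3a the middle of the shared peak was nearest to a further start of the gene. At Oprl1 and Htr3a peaks of both libraries also covered the outermost start. Chrm4 and Chrna1 were among the 21 that were not open.

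Marker lists of cell types held few low-CpG promoters. Pan-neuronal markers had 2 of 5 open, Gria1 among them, excitatory neuron markers 2 of 9 (Pcp4 and Neurod6) and interneuron markers 1 of 8 (Htr3a, whose product marks a class of interneurons). Astrocyte markers had 2 of 8: Gfap, and Itih3 with signals of only 0.566 and 0.518. Of the astrocyte markers Acsbg1, Aldoc, Mlc1 and S100b had a peak in replicate 1 only. None was open, where 1.93% of all low-CpG promoters would be under 1 gene in each list, among 24 microglia and macrophage markers, 10 oligodendrocyte markers and 11 vascular markers, although Cd68 and Hapln2 had a peak in replicate 1. Markers foreign to the tissue were open at 0 of 20 blood and 0 of 16 striated muscle genes with low-CpG promoters, and 1 of 13 keratinocyte genes was open, Krt77, with 0.750 and 0.758.

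**Figure D5:**
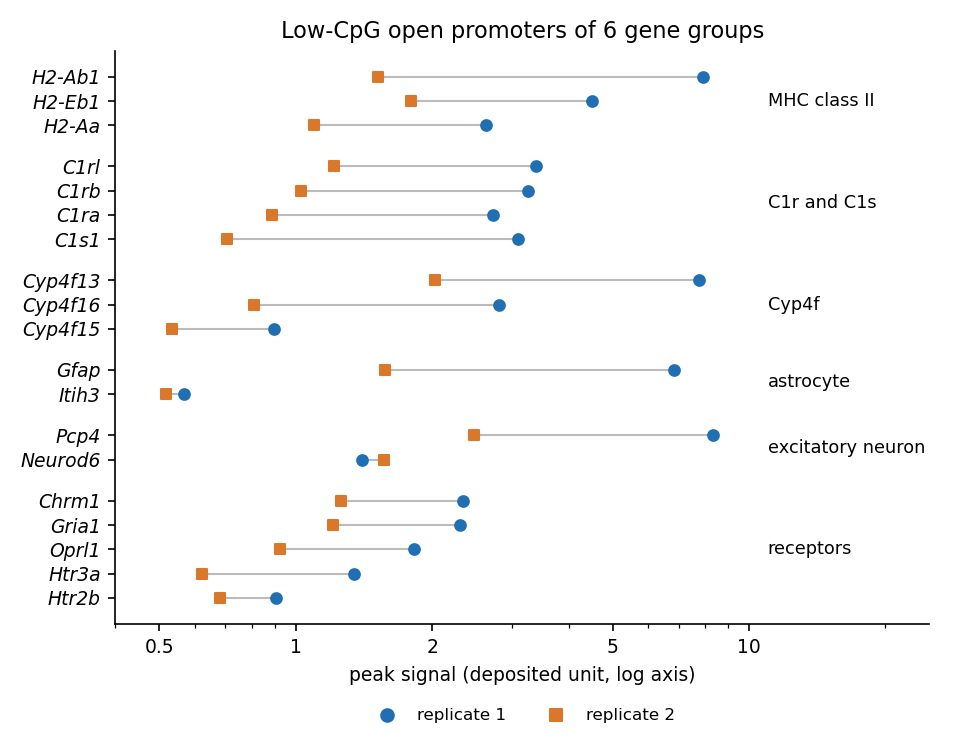
Deposited peak signal (x, log axis) in replicate 1 (circles) and replicate 2 (squares) at low-CpG open promoters of 6 gene groups (y). Replicate 1 is higher at each gene shown except Neurod6, and the MHC class II, C1r and C1s genes have wider gaps between the libraries than the receptor genes.

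The groups of more than 2 neighbouring members were 3 class II genes and 4 complement genes. On chromosome 17 the class II genes H2-Ab1, H2-Aa and H2-Eb1 opened within 48178 bp. Of 8 low-CpG class II genes, a list chosen after values were seen, these 3 were open (37.5%), beside 1.93% of all low-CpG promoters. H2-Ab1 had signals of 7.93 and 1.52, H2-Eb1 4.51 and 1.79 and H2-Aa 2.63 and 1.10. Each had peaks within 100 bp of the start and 2 or 3 shared footprints in the window, as the sequences above show for H2-Aa and H2-Eb1. H2-Eb1 overlaps an exon of the noncoding gene Gm20513, whose start was nearer to the peak. The CTGATTGG letters lay from 51 to 44 bases before the start of H2-Aa and from 62 to 55 before that of H2-Eb1. In the 200 bases before the start these letters stood at 4.09% of all promoters and at 5 of 109 members off chromosome 18. H2-Ab1 was not among these 5.

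On chromosome 6 the complement genes C1rl, C1ra, C1s1 and C1rb, which encode or resemble the proteases of the first complement component, opened within 77181 bp. All 5 genes of this family, a list chosen after values were seen, had a low-CpG promoter. Of these 4 were open (80%), beside 1.93% of all low-CpG promoters, and C1s2 alone was closed. Signals were 3.39 and 1.22 at C1rl, 3.26 and 1.03 at C1rb, 2.73 and 0.885 at C1ra and 3.09 and 0.705 at C1s1. C1rl, C1rb and C1s1 had their peaks before the start, by 73, 44 and 181 bp, and C1ra had its peak 176 bp after it. C1ra and C1rb are near copies of each other, as are C1s1 and C1s2, so reads could be split between copies or left out at them.

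Of 7 low-CpG Cyp4f genes, a list chosen after their values were seen, 3 were open (42.9%), all on chromosome 17, and Cyp4f14 had a peak in replicate 1 only. Signals ranged from 7.76 and 2.03 at Cyp4f13 over 2.81 and 0.810 at Cyp4f16 to 0.897 and 0.533 at Cyp4f15. The gapped NFI-type letters, sought after the sequences had been seen, lay from 80 to 68 bases before the start of Cyp4f13, 75 to 63 before that of Cyp4f16 and 92 to 80 before that of Cyp4f15. They stood in the 200 bases before the start of 7 of 109 low-CpG open promoters (6.42%), 1.16% of other open promoters and 1.07% of all promoters. These genes are paralogs, so the shared letters are not independent observations. Over the wider list of cytochromes P450 and conjugating enzymes 3 of 150 low-CpG promoters were open (2.00%), near the 1.93% of all low-CpG promoters.

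The large gene families are given beside the 1.93% of all low-CpG promoters that were open; a share near it is not a result about the family. Olfactory receptors made up 1089 of the 5813 low-CpG promoters, and 2 were open (0.184%): Olfr557, with signals of 1.20 and 0.548 and the CTCF-type motif shown above, and Olfr536. Both peaks lay well before the start, by 330 and 418 bp. None of 368 vomeronasal, taste and trace amine receptors, 56 defensins, 39 C-type lectin and killer cell receptors and 30 zinc finger genes was open. Of 96 interleukin and chemokine genes Il18 was open, with 1.14 and 0.915, and of 51 interferon-induced genes Ifi203. Serpine2, an inhibitor of serine proteases, was the 1 open gene of 72 serpins and related inhibitors, with 0.912 and 0.405. Of 77 solute carriers 2 were open (2.60%): Slc4a10, a bicarbonate transporter of neurons, with 1.76 and 0.915, and Slc15a2, a peptide transporter, with 1.34 and 0.615. Predicted genes with Gm or Rik names gave 10 of 923 (1.08%), led by Gm17482 with 5.71 and 1.51, and 66 of the 112 stood in no list.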

How the data were processed

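For each of the 2 libraries the authors deposited 2 peak lists, footprints and a cut-rate file on mm10, each made from that library alone per the deposited description. Neither the aligner nor the peak caller is given in the sources used here. Peak strength is the signal the authors deposited per peak, on an unstated scale. The deposited p-values are false discovery rates: of the cut rate, listed up to 0.05, and of footprints, constant at 0.01. The strict peak list was the shorter of the 2. Starts came from GENCODE M21 and sequence from GRCm38.p6, the same build as mm10, with coordinates counted from 1. CpG ratios, overlaps, footprints and motifs were computed in Python 3.11.15 with pandas 2.3.3, numpy 2.4.6 and scipy 1.17.1, and the functions were tested on simulated data. The strongest peak within 500 bp gave the signal and width in each library, and the overlapping pair of peaks with the highest product of signals gave the shared peak. Motifs were sought on both strands in 200 bp.

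With 1 group there was no comparison between conditions and no test. No counting interval is given, since depth is unknown; exact binomial intervals over promoters served only to judge whether an alternative moved a share. The members, the gene lists and the motifs were chosen with earlier results of these data known. Genes were named by rule: the 10 strongest members, those next to each boundary, the strongest of each list, those with a TATA box, most footprints or fewest CpG sites. Other names were chosen after their values were seen, as were the lists of C1r and C1s, class II and Cyp4f genes and the corrected receptor list. Alternatives for peak list, windows, CpG limit, start annotation and library are given in the closing section. Sequences on chromosome 18 and in protein-coding exons are not printed, and results for some members are not reported here.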

Additional observations from a re-analysis of the deposited data

How the results depend on the processing

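No paired analysis was possible because both libraries belong to 1 group. Of 147 alternative values over 21 settings, 101 stayed near the value reported and 46 moved. Shares were judged by the binomial interval of the reported value, and signal and width ratios by the spread between libraries. The number of members was judged by a fixed limit on its fold change. Only the signal and width ratios could reverse direction, and none did. The signal and width of members against other open promoters are given here as log2 ratios of medians, −1.12 and −0.33 as reported. The longer peak lists gave 224 members, 3.85% of low-CpG and 75.1% of other promoters open, a signal ratio of −1.69, a width ratio of −0.24 and shared footprints at 46.4%. The stronger 50% of peaks gave 57 members, 0.981% and 60.1% open, a signal ratio of −0.60, shared footprints at 84.2% and a TATA box at 0%. A window of 250 bp gave 1.38% and 65.0% open, a signal ratio of −1.29 and peaks over the start at 46.2%. A window of 1000 bp gave 202 members, 3.47% and 71.1% open, −0.73 and 18.3%. With the CpG ratio taken in 500 bp, 2.53% and 67.5% were open, the width ratio was −0.25 and peaks covered the start at 20.98%. In 2000 bp these shares were 2.34%, 69.6% and 44.8%, and a further open start not low in CpG occurred at 18.2%. A limit of 0.20 gave 57 members, 1.21% and 64.0% open, and a limit of 0.30 gave 199, 2.95% and 72.3%. Other promoters were open at 67.3% when peaks had to overlap by 50% and at 69.2% with basic transcripts. Peaks of both libraries lay within 100 bp of the start at 54.5%. Leaving out 1 library gave 147 to 193 members, 2.53% to 3.32% of low-CpG promoters open, a signal ratio of −1.59 to −1.26 and a footprint at 87.8% to 92.2%, and 69.0% to 76.3% of other promoters open. Of the 112 members, 82 were among the 143 found with the ratio in 2000 bp, 89 among the 143 found with it in 500 bp and 90 among the 97 found with basic transcripts. The share with the CTCF-type motif, whose alternatives were chosen after seeing the data, ranged from 10.9% to 23.2%. Depth is unknown, so a closed promoter may lie below detection.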
